A study of Mus musculus with 70 samples.

Results

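Lung RNA of mice given 7 chemicals that the labels class as positive for lung tumours was set against that of mice given 6 chemicals classed as negative, with the chemical as the replicate. All 13 chemicals of the series entered, and with them all 70 arrays in 18 groups, of which 48 arrays were of treated animals and 22 of controls. Every animal was a female B6C3F1 mouse, exposed for 13 weeks and killed at 18 weeks of age, and each array measured the RNA of 1 right lung lobe. For each chemical and gene, the mean log2 signal of the matched control animals was subtracted from the mean of the treated animals. This log2 change is the single value that a chemical contributed to the comparison of classes.

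The positive chemicals were 1,5-naphthalenediamine (NAPD) at 2000 ppm in feed, 2,3-benzofuran (BFUR) at 240 mg/kg in corn oil and 2,2-bis(bromomethyl)-1,3-propanediol (BBMP) at 1250 ppm in feed. The others of this class were N-methylolacrylamide (MACR) at 50 mg/kg in water, and 1,2-dibromoethane (DBET) at 62 mg/kg, coumarin (COUM) at 200 mg/kg and benzene (BENZ) at 100 mg/kg, all in corn oil. The negative chemicals in feed were N-(1-naphthyl)ethylenediamine dihydrochloride (NEDD) at 2000 ppm, pentachloronitrobenzene (PCNB) at 8187 ppm, 4-nitroanthranilic acid (NAAC) at 10000 ppm, diazinon (DIAZ) at 200 ppm and malathion (MALA) at 16000 ppm. The remaining negative chemical was 2-chloromethylpyridine hydrochloride (CMPH) at 250 mg/kg in water. Oil and water were given by gavage at 5 ml/kg on 5 days a week, and feed was offered on 7 days a week. The controls received feed, corn oil or water alone. Each group of set 1 (NAPD, BFUR, NEDD, PCNB and their feed and corn oil controls) had 3 animals. Each group of set 2 had 4 animals, apart from its corn oil controls with 8.

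The classes differ in more than their tumour label. All 4 chemicals in corn oil were positive, whereas feed carried 2 positive and 5 negative chemicals and water 1 of each, so vehicle and class cannot be told apart for corn oil. Several chemicals share their controls. NAPD, NEDD and PCNB share the feed controls of set 1, and BBMP, NAAC, DIAZ and MALA those of set 2. MACR and CMPH share the water controls, DBET, COUM and BENZ the corn oil controls of set 2, and BFUR alone has those of set 1. Animals of set 1 and set 2 also stood apart on the first principal component, which held 55.1% of the variance. Set 1 animals lay between -55.7 and -30.5 on it and set 2 animals between -17.8 and 63.3. N-methylolacrylamide had a median of 7.42 and CMPH of 34.8, against 47.4 in the water controls of both. The difference of the 3' and 5' actin and Gapdh control probe sets, a proxy of RNA integrity, stood out in 1 dibromoethane array (2-56, 0.989) and 1 benzofuran array (1-10, 0.523). The RNA integrity number in the labels, missing for some arrays, was lowest for 2-56, while that of 1-10 lay within the range of other set 1 arrays. Group medians of this number, where given, were 8.3 to 9.2 in set 1 and 7.9 to 8.5 in set 2. The amount sent to the core, as labelled, was lower for all BBMP arrays than for most other arrays of set 2. The feed controls of set 2 held both amounts, and the part of this difference was not tested. The lung markers Sftpc (14.23 to 14.45) and Scgb1a1 (13.95 to 14.37) had high log2 signals in all 70 arrays.

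Many organic chemicals are made reactive in the lung by cytochrome P450 enzymes, which are abundant in club cells of the mouse airway. Glutathione S-transferases join the reactive products to glutathione, and epoxide hydrolases and carboxylesterases cleave others. The transcription factor NRF2 turns on transferases, NADPH-supplying enzymes and glutathione synthesis through antioxidant response elements, and the aryl hydrocarbon receptor turns on Cyp1a1 through xenobiotic response elements. DNA damage acts on transcription mainly through p53. Ciliated cells line the airway beside club cells and carry a large set of genes for motile cilia.

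The promoters below belong to 3 genes of glutathione and thioredoxin metabolism that recurred among the positive chemicals, and to Cyp1a1, which did not follow the classes. They show the letters of the antioxidant response element, TGACNNNGC, and the xenobiotic response element core, GCGTG. Each gene shown holds a match, and where a gene had several windows the one with most matches was taken. The other Txnrd1 windows held no TGACNNNGC, nor did those of the recurrent genes Nqo1, Gpx2, Gsta2, Gstm1 and Cbr1. Each run covers 250 bases before and 50 after the RefSeq gene start in GRCm38.p6, read on the strand of the gene. Capitals mark the TGACNNNGC match in Gclm, Gsta3 and Txnrd1 and the GCGTG match in Cyp1a1. GCGTG also stands, unmarked, 3 times in the Gclm window and 2 times in that of Txnrd1, counting both strands, and 0 times in that of Gsta3. Gclm, the regulatory subunit of glutamate-cysteine ligase, lies at chr3:122245307-122245606 (+) and the match at base 117 is on the opposite strand. Gsta3, a glutathione transferase, lies at chr1:21240335-21240634 (+), with the match at base 130. Txnrd1, a thioredoxin reductase, lies at chr10:82858956-82859255 (+), with the match at base 159 on the opposite strand. Cyp1a1 lies at chr9:57697363-57697662 (+), with GCGTG at base 197.
Gclm: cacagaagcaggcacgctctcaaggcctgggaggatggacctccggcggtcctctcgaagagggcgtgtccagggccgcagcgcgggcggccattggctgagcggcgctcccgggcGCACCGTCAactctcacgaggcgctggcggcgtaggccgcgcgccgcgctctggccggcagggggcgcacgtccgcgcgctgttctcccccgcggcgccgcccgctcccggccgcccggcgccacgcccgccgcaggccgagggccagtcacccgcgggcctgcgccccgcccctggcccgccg
Gsta3: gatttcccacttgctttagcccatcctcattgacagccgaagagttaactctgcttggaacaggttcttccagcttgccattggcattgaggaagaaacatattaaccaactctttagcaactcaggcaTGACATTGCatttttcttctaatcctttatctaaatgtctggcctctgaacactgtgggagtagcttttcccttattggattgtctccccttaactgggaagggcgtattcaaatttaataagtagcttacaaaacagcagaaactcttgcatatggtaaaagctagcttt
Txnrd1: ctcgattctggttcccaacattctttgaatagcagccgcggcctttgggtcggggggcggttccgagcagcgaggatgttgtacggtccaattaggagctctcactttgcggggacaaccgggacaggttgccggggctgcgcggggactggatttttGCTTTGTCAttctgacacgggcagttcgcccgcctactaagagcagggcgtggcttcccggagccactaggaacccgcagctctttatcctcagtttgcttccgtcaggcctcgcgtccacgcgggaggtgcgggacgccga
Cyp1a1: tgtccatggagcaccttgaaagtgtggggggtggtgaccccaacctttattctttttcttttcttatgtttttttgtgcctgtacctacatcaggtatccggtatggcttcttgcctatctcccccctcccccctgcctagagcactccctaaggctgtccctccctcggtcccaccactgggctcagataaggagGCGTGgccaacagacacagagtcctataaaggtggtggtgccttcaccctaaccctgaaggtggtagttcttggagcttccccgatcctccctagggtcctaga

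Searched on both strands, TGACNNNGC stood in 12.4% of all 32851 promoters of this length and in 14.3% of the 14873 promoters of genes tested. Among the 52 genes that recurred in the positive chemicals, described below, 46 genes had 60 promoters in the RefSeq table, and 15 of these promoters (25.0%) held the motif. GCGTG stood in 32.4% of all promoters, in 46.7% of those of genes tested and in 20 of the 60 (33.3%). These matches describe the letters in the window and are no measure of binding.

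The size of the response was the first contrast between the classes. Each chemical was tested against its own controls in 1 limma model of all 70 arrays, and a gene was called at a Benjamini-Hochberg adjusted p under 0.05 over 14593 genes. N-methylolacrylamide had 1564 genes higher (10.7%) and 1041 lower (7.13%). Benzofuran had 518 higher (3.55%) and 76 lower (0.521%), coumarin 425 higher (2.91%) and 172 lower (1.18%), and 1,2-dibromoethane 283 higher (1.94%) and 305 lower (2.09%). 1,5-Naphthalenediamine had 140 higher (0.959%) and 22 lower (0.151%), benzene 12 higher (0.0822%) and 1 lower (0.00685%). BBMP had none in either direction (0%), although 1568 genes had an unadjusted p under 0.05 and the smallest adjusted p was 0.0633.

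Among the negative chemicals malathion stood apart, with 151 genes higher (1.03%) and 169 lower (1.16%). NEDD and pentachloronitrobenzene each had 1 gene higher (0.00685%) and none lower (0%), and diazinon had none higher (0%) and 1 lower (0.00685%). 4-Nitroanthranilic acid and CMPH had none in either direction (0%) by limma. Their genes with an unadjusted p under 0.05 numbered 272 for 4-nitroanthranilic acid and 1710 for CMPH, and their smallest adjusted p-values were 0.122 and 0.351. Of the 7 positive chemicals 6 therefore had called genes, as had 4 of the 6 negative ones, 3 of these with a single gene.

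These counts rest on few arrays, and the number of arrays differed between chemicals. 1,2-Dibromoethane, coumarin and benzene, all positive, were set against 8 controls, and every other chemical against 3 or 4. Both the calls and the spread of the log2 changes depend on these numbers. Their part in the class contrasts of response size was not tested. Leaving out single benzofuran arrays gave 47 calls without 1-10, 918 without 1-6 and 1331 without 1-8, against 594 with all, and leaving out its controls 1-22 and 1-24 gave 129 and 299. N-methylolacrylamide had 909 without array 2-102 and 1098 without 2-106. Without its controls it had 1435 (2-121), 299 (2-124) and 3979 (2-129), against 2605 with all. 1,5-Naphthalenediamine, with 162, had 103 without array 1-4 and 80 without control 1-29, and 1,2-dibromoethane, with 588, had 360 without 2-54 and 351 without 2-58. Malathion, with 320, had 142 without 2-38, 77 without 2-39, and 125, 178 and 182 without controls 2-42, 2-44 and 2-45. Benzene, with 13, had 7, 6 and 5 without 2-85, 2-86 and 2-90, and 6 without control 2-134 or 2-60. Coumarin was the steadiest of the chemicals with many calls, at 450 to 678. Among the others, BBMP had 8 without 2-2, NEDD 9 without 1-14, CMPH 1 without control 2-129, and diazinon 0 to 2. When each comparison was fitted on the arrays of its own 2 groups alone, benzofuran had 9 calls, 1,2-dibromoethane 10, coumarin 146, benzene 0, N-methylolacrylamide 1338, 1,5-naphthalenediamine 293, BBMP 88 and malathion 374.

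On the log2(called + 1) scale the positive chemicals averaged 7.16 ± 3.93 and the negative chemicals 1.89 ± 3.19 (SD, n = 7 and 6). The difference was 5.28, with a two-sided exact permutation p of 0.0379 over 1716 splits, and 0.114 after adjustment over 3 such values. The spread of the log2 changes over genes, which needs no threshold, averaged 0.242 ± 0.058 in the positive chemicals and 0.192 ± 0.0471 in the negative chemicals (SD). That difference was 0.0495 (exact permutation p 0.121, adjusted 0.182). N-methylolacrylamide (0.355) had the widest spread, malathion (0.259) came next, and benzene (0.163) lay below 4 of the 6 negative chemicals. The 3' minus 5' difference of the classes was 0.0461 (exact permutation p 0.358, adjusted 0.358). None of the 3 values passed after adjustment.

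**Figure D1:**
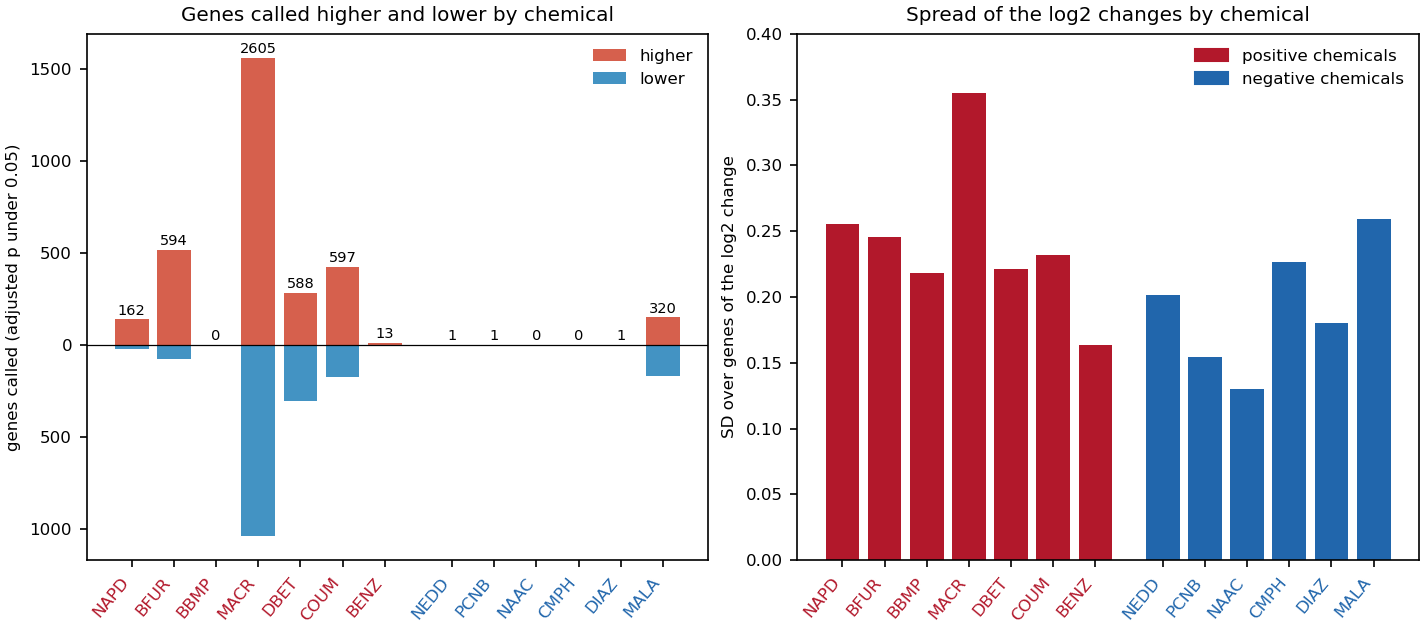
Genes called higher (up) and lower (down) per chemical at an adjusted p under 0.05 (left, with totals), and the SD over genes of the log2 change (right), positive chemicals before negative ones. N-methylolacrylamide (2605) leads the calls, and malathion (320) is the only negative chemical with more than 1.

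No single gene separated the classes at the threshold used. With 7 positive against 6 negative chemicals, limma called none of 14593 genes (0%), and the smallest adjusted p was 0.746. At an unadjusted p under 0.05 there were 686 genes higher in the positive class (4.7%) and 257 lower (1.76%). This fit treats the 13 chemicals as independent, although most share controls. With the control group as a random block there were 330 higher and 92 lower, and as a fixed block 137 and 37. Without the corn oil chemicals there were 46 and 19. In 8 genes all 7 positive chemicals lay above all 6 negative ones (0.0548%), and in no gene did all 7 lie below (0%). Over the 1716 possible splits, and if the chemicals were independent, the chance of such a gap in a given direction is 0.000583 per gene. On that assumption the count of 8 is near what chance alone gives. The genes that follow are those with the strongest contrasts, and each of their class differences has an adjusted p of 0.746.

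Hoatz, a gene of motile cilia and flagella, had the strongest contrast, with a class difference of 0.67 ± 0.15 (SE) log2. Benzofuran animals had log2 signals of 7.61, 7.77 and 8.62, against 6.82, 7.26 and 7.46 in their controls. Coumarin animals had 7.05, 7.24, 7.71 and 7.83, against 5.94 to 7.48 in their controls, which overlap with them. Hoatz changed by 0.82 for benzofuran, 0.73 for coumarin, 0.56 for 1,2-dibromoethane, 0.43 for 1,5-naphthalenediamine, 0.33 for N-methylolacrylamide and 0.13 for benzene, but by -0.21 for BBMP. All 6 negative chemicals lay below 0, with values between -0.59 for NEDD and -0.08 for CMPH. Of these changes the test called that of coumarin (adjusted p 0.025).

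Rarb, a retinoic acid receptor, had a class difference of 0.67 ± 0.16, with changes of 0.32 to 0.80 in 6 positive chemicals and -0.43 in BBMP, against -0.63 to -0.10 in the negative chemicals. Pigr, which carries immunoglobulins across epithelia, had a class difference of 0.60 ± 0.14. Its change was 0.47 for 1,5-naphthalenediamine and -0.55 for BBMP at the ends of the positive class, and all negative chemicals lay between -0.69 and -0.20. Much of the Pigr contrast thus came from values below 0 in the negative class. Meig1, known from sperm formation and also active in ciliated cells, had 0.78 ± 0.20. It rose by 1.13 for benzofuran (adjusted p 0.000302), 1.08 for coumarin (7.72e-07) and 0.49 for 1,2-dibromoethane (0.0464), and had values from -0.62 to -0.02 in the negative class. Plch1, a phospholipase C, had 0.37 ± 0.09, and Ttc26, an intraflagellar transport protein, 0.42 ± 0.11.

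Gstm6, a mu-class glutathione transferase, was the member of the rule-named genes with no overlap between the classes. The 7 positive chemicals had changes of 0.18 to 0.97 and the 6 negative ones of -0.14 to 0.08, and the class difference was 0.43 ± 0.11. Benzofuran animals had log2 signals of 6.29, 6.30 and 7.29, against 5.55, 5.57 and 5.85 in their controls. For the other positive chemicals treated animals and controls overlapped or nearly did: N-methylolacrylamide animals had 5.78, 5.83, 6.03 and 6.41, against 5.53, 5.75, 5.88 and 6.04 in the water controls. Benzofuran was the only chemical in which the gene was called (adjusted p 0.00525). The gap between the classes was 0.10 log2, less than the spread of animals within most groups. The probe sets of mu-class transferases can detect near-identical relatives, so the identity of single members is uncertain.

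The other 7 genes without overlap, singled out after their values were seen, were Ndufb2, Ephx4, Abhd3, Romo1, Commd6, Ppil6 and Ss18l2. Ndufb2 and Romo1 belong to the mitochondrial inner membrane, and Ephx4 to the epoxide hydrolase family. The gap between the classes was 0.00045 log2 for Ss18l2, the smallest of the 8.

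Genes with lower values in the positive class were fewer and their contrasts smaller. Cd207, the langerin gene of dendritic cells, had a class difference of -0.37 ± 0.10, with -0.49 for benzene, -0.39 for coumarin and 0.18 for BBMP, against 0.07 to 0.34 in the negative chemicals. Dll4, a Notch ligand of endothelial cells, had -0.38 ± 0.11, Fzd2, a Wnt receptor, -0.28 ± 0.08, and Ece1, the endothelin-converting enzyme, -0.23 ± 0.07. BBMP stood on the side of the negative class in Cd207 and Dll4 (0.28).

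BBMP also decided the count of called genes. Without it, 6 positive against 6 negative chemicals gave 4 called genes: Rarb (0.80 ± 0.10, adjusted p 0.023), Pigr (0.71 ± 0.11, 0.0387), Hoatz (0.78 ± 0.12, 0.0451) and Aqp4 (0.72 ± 0.10, 0.0387). Aqp4, a water channel of airway epithelium named here after its values were seen, had a class difference of 0.58 with all 13 chemicals. Leaving out any other single chemical gave 0 calls.

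**Figure D2:**
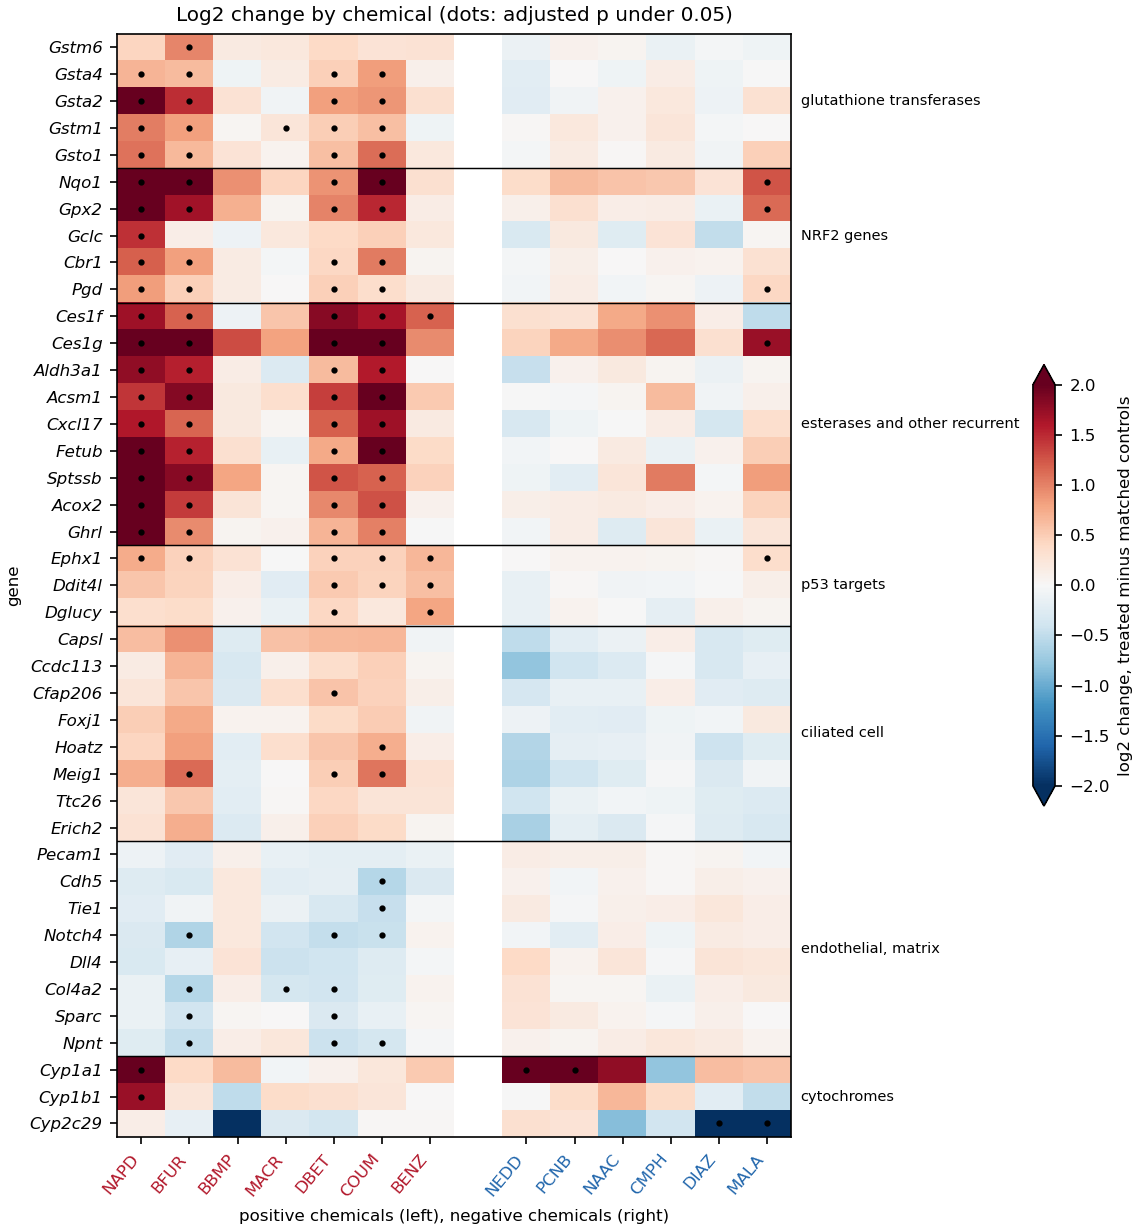
Log2 change of named genes (rows, in groups) for each chemical (columns, positive left and negative right), red above and blue below the matched controls, with dots where the adjusted p was under 0.05. Dots of the upper groups gather in 1,5-naphthalenediamine, benzofuran, 1,2-dibromoethane and coumarin, and of the negative chemicals malathion has most.

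Recurrence across separate experiments was counted over the 5 control groups, since chemicals with common controls are not independent. A gene was called higher in positive chemicals of at least 1 control group in 2540 cases, of at least 2 in 219, of at least 3 in 52 (0.356%), of 4 in 1 and of 5 in none. Lower calls were rarer, with 1512, 67 and 1 gene (0.00685%) at 1, 2 and 3 control groups. All 52 genes were called higher in both 1,5-naphthalenediamine and benzofuran, 48 in coumarin and 36 in 1,2-dibromoethane. The rule nearly fixes this. These first 2 are each the only positive chemical of their control group, BBMP had no calls, and N-methylolacrylamide shared few with either. Benzene had 2 of the 52 (0.0822% of all genes were called higher), N-methylolacrylamide 1 (10.7%) and BBMP none (0%). Of the negative chemicals, malathion had 8 of the 52 called higher (1.03% of all genes were) and the other 5 had none.

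The median log2 change of the 52 genes was 0.98 for 1,5-naphthalenediamine, 0.81 for benzofuran, 0.72 for coumarin and 0.47 for 1,2-dibromoethane, where the calls had chosen them. It was 0.15 for BBMP, 0.10 for benzene and -0.03 for N-methylolacrylamide, although the last had by far the most called genes. In the negative class it was 0.23 for malathion and between -0.05 and 0.09 for the others. Outside the 4 chemicals that chose them, benzene had 43 of the 52 genes above 0, BBMP 38 and N-methylolacrylamide 23. Of the negative chemicals malathion had 42, pentachloronitrobenzene 35, CMPH 31, 4-nitroanthranilic acid 27, diazinon 19 and NEDD 18.

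The set of 52 depended on single arrays of set 1. Without benzofuran array 1-10, the one with the high 3' minus 5' difference, it held 22 genes, 21 of them among the 52. Without corn oil control 1-22 it held 28 and without feed control 1-29 it held 33, all of them among the 52. Without both arrays that stood apart it held 23, and with each comparison fitted on its own 2 groups 7. The part of the 3' minus 5' difference and of RNA integrity in these calls was not tested beyond this.

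The pairwise counts had the same shape. Of the genes higher with 1,5-naphthalenediamine, 61 were also higher with benzofuran, which is 43.6% of the naphthalenediamine genes and 11.8% of the benzofuran genes. With coumarin 1,5-naphthalenediamine had 62 in common (44.3% of its genes and 14.6% of those of coumarin) and with 1,2-dibromoethane 44 (31.4% and 15.5%). Benzofuran and coumarin had 150 in common (29% and 35.3%). N-methylolacrylamide had 2 in common with 1,5-naphthalenediamine (0.128% of its own genes and 1.43% of those of naphthalenediamine), 3 with benzofuran (0.192% and 0.579%) and 5 with coumarin (0.32% and 1.18%). With 1,2-dibromoethane it had 23 in common (1.47% of its own genes and 8.13% of those of dibromoethane). Of all genes tested, 10.7% were higher with N-methylolacrylamide, more than its share in any of these 4 lists of higher genes. The lower calls differed. Of the 305 genes lower with 1,2-dibromoethane, 41 were lower with N-methylolacrylamide, and of the 172 with coumarin 18. Both shares lie above the 7.13% of all genes. Of the 76 with benzofuran it was 1, and of the 22 with 1,5-naphthalenediamine 0.

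Gstm1 was the gene called higher in positive chemicals of 4 control groups. 1,5-Naphthalenediamine animals had log2 signals of 12.57, 12.72 and 12.79, against 11.62, 11.66 and 11.74 in their controls. Benzofuran animals had 12.35, 12.43 and 12.47, against 11.46, 11.63 and 11.72. The groups did not overlap for these chemicals, nor for coumarin, whose animals had 12.38 to 12.55, or 1,2-dibromoethane with 12.06 to 12.54, against 11.72 to 11.95 in their controls. The log2 changes were 1.02 ± 0.09, 0.81 ± 0.09, 0.60 ± 0.07 and 0.49 ± 0.07 (SE), with adjusted p-values of 1.31e-12, 1.47e-08, 3.23e-09 and 5.69e-06, in the order 1,5-naphthalenediamine, benzofuran, coumarin and 1,2-dibromoethane. N-methylolacrylamide animals had 12.13, 12.16, 12.25 and 12.36, against 11.93, 11.95, 12.03 and 12.05 in the water controls, a rise of 0.23 ± 0.08 (adjusted p 0.0321). The negative chemical with the same controls, CMPH, had 12.16, 12.21, 12.25 and 12.32 and a change of 0.25 ± 0.08 that was not called (adjusted p 0.351). Benzene animals had 11.48, 11.84, 11.86 and 11.88, within or below their controls.

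Glutathione transferases as a family followed the same 4 chemicals. All 21 of the 23 listed members that were tested had a class difference above 0, with a median of 0.27, beside 7937 of 14593 genes (54.4%) and a median of 0.012 over all genes tested. No member was called by class. The median was 0.61 for set 1 alone and 0.18 for set 2 alone. Benzofuran had 15 of the 21 called higher (3.55% of all genes were), coumarin 11 (2.91%) and 1,5-naphthalenediamine 6 (0.959%). 1,2-Dibromoethane had 6 (1.94%) and N-methylolacrylamide 1 (10.7%). Malathion had 1 higher (1.03%) and 1 lower (1.16%), and the other 7 chemicals had none. The median change of the family was 0.65 for benzofuran, 0.43 for 1,5-naphthalenediamine, 0.41 for coumarin and 0.20 for 1,2-dibromoethane, and between 0.02 and 0.08 for BBMP, N-methylolacrylamide and benzene. The negative chemicals lay between -0.10 and 0.05, so that N-methylolacrylamide (0.02) and benzene (0.03) lay below pentachloronitrobenzene (0.05). Gsta2, an alpha-class member, rose by 2.08 for 1,5-naphthalenediamine, 1.48 for benzofuran, 0.88 for coumarin and 0.81 for 1,2-dibromoethane. Gsta4, which conjugates the lipid peroxidation product 4-hydroxynonenal, rose by 0.67, 0.63, 0.83 and 0.48 in the same 4 chemicals taken in that order, and Gsto1, an omega-class member, by 1.08, 0.65, 1.11 and 0.60. Near-identical members of this family may share probe sets, so the counts of members are uncertain.

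Of the 25 listed antioxidant and NADPH supply genes under NRF2, 21 were tested, 20 of them had a class difference above 0, and their median was 0.26. 1,5-Naphthalenediamine had 17 called higher with a median change of 0.94, benzofuran 12 (0.49), coumarin 11 (0.37) and 1,2-dibromoethane 6 (0.21). Of all genes, 0.959%, 3.55%, 2.91% and 1.94% were called higher with these chemicals, in that order. Malathion had 5 called higher (1.03% of all genes were) with a median change of 0.26. N-methylolacrylamide had 2 higher and 1 lower, where 10.7% and 7.13% of all genes were, and a median change of -0.04. BBMP (median change 0.10) and benzene (0.11) had none. The negative chemicals other than malathion also had none, with median changes between -0.05 for diazinon and 0.15 for pentachloronitrobenzene. The latter lay above benzene, BBMP and N-methylolacrylamide. The class median of the list was 0.81 for set 1 alone and 0.10 for set 2 alone.

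Nqo1, a quinone reductase and a standard marker of NRF2 activity, was called higher in malathion as well as in 4 positive chemicals. 1,5-Naphthalenediamine animals had log2 signals of 8.48, 8.57 and 8.94, against 5.35, 5.53 and 5.70 in their controls, a rise of 3.14 ± 0.30 (adjusted p 2.03e-11). Coumarin animals had 7.94, 7.98, 8.04 and 8.10 and 1,2-dibromoethane animals 6.32, 6.52, 6.55 and 7.50, against 5.40 to 6.28 in the controls of both. Benzofuran animals had 7.19, 7.68 and 8.14, against 5.32, 5.61 and 5.75. No treated animal of these 4 chemicals overlapped with its controls, and the rises were 2.19 for coumarin (adjusted p 2.64e-10), 2.11 for benzofuran (7.58e-06) and 0.89 for 1,2-dibromoethane (0.0164). Malathion animals had 6.24, 7.06, 7.65 and 8.02, against 5.82, 5.92, 6.00 and 6.24 in their controls, a rise of 1.25 ± 0.26 (adjusted p 0.00456). BBMP, with the same controls, had 6.34, 6.68, 7.16 and 7.46 and a change of 0.92 ± 0.26 (adjusted p 0.284). The class difference of Nqo1 was 0.82 ± 0.39 (adjusted p 0.767).

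Gpx2, a glutathione peroxidase of epithelia, had a like order. It rose by 2.46 for 1,5-naphthalenediamine, 1.68 for benzofuran, 1.50 for coumarin, 1.13 for malathion and 0.99 for 1,2-dibromoethane. Gclc, the catalytic subunit of the enzyme that begins glutathione synthesis, was called in 1,5-naphthalenediamine alone, where animals had 11.93, 12.14 and 12.33, against 10.31, 10.85 and 10.86 in controls (a rise of 1.46 ± 0.26, adjusted p 0.000265). Cbr1, a carbonyl reductase, rose in the same 4 positive chemicals by 0.41 to 1.19. Pgd, an NADPH-producing enzyme of the pentose phosphate pathway, rose in them by 0.34 to 0.84, and by 0.42 for malathion.

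The carboxylesterase Ces1g had the widest changes of the 52 genes. It rose by 4.57 ± 0.37 for 1,5-naphthalenediamine (adjusted p 3.33e-14), where animals had 9.42, 9.43 and 9.51, against 4.78, 4.83 and 5.02 in controls. It rose by 3.59 for coumarin (8.28e-15), 3.36 for benzofuran (1.34e-08), 2.13 for 1,2-dibromoethane (9.07e-07) and 1.73 for malathion (0.000846). None of the 13 chemicals had a change below 0 in Ces1g, the lowest being 0.32 for diazinon. Its class difference was 1.50 ± 0.54 (adjusted p 0.746).

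Ces1f was called in 5 positive chemicals and, unlike Ces1g, in no negative one. Benzene animals had log2 signals of 7.29, 7.48, 7.62 and 7.72, 1,2-dibromoethane animals 7.94, 8.06, 8.09 and 8.58, and coumarin animals 6.94, 7.97, 8.18 and 8.90, against 5.74 to 6.83 in their common controls. All 12 of these treated animals lay above all 8 controls. The rises were 1.82 for 1,2-dibromoethane, 1.70 for 1,5-naphthalenediamine, 1.65 for coumarin, 1.18 for benzofuran and 1.18 for benzene (adjusted p 0.00189 for benzene). Malathion animals had 5.95, 6.02, 6.41 and 6.72, against 6.54, 6.67, 6.71 and 7.22 in controls, and the change of -0.51 was not called (adjusted p 0.254). Of the 19 listed esterases 11 were tested, with a median class difference of 0.11 and 7 above 0. The family as a whole stood less apart from all genes than these 2 members, whose probe sets may also detect close relatives.

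Other recurrent genes came from several processes. Acsm1, a medium-chain acyl-CoA synthetase, rose by 2.42 for coumarin (adjusted p 7.38e-13), 1.83 for benzofuran, 1.43 for 1,5-naphthalenediamine and 1.39 for 1,2-dibromoethane, and its negative chemicals lay between -0.07 and 0.63. Aldh3a1, an aldehyde dehydrogenase, rose by 1.78 for 1,5-naphthalenediamine, 1.58 for coumarin, 1.56 for benzofuran and 0.64 for 1,2-dibromoethane. Cxcl17, a chemokine of mucosal epithelium, rose by 1.69 for coumarin, 1.60 for 1,5-naphthalenediamine, 1.20 for 1,2-dibromoethane and 1.17 for benzofuran. Sptssb, a small subunit of serine palmitoyltransferase, rose by 2.91 for 1,5-naphthalenediamine, and CMPH (1.04) and malathion (0.84) had the highest values of the negative class without a call. Fetub, a secreted protease inhibitor, rose by 2.63 for 1,5-naphthalenediamine and 2.07 for coumarin, Acox2, a peroxisomal oxidase, by 2.06 and 1.27, and Ghrl, which encodes ghrelin, by 2.05 and 1.01.

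**Figure D3:**
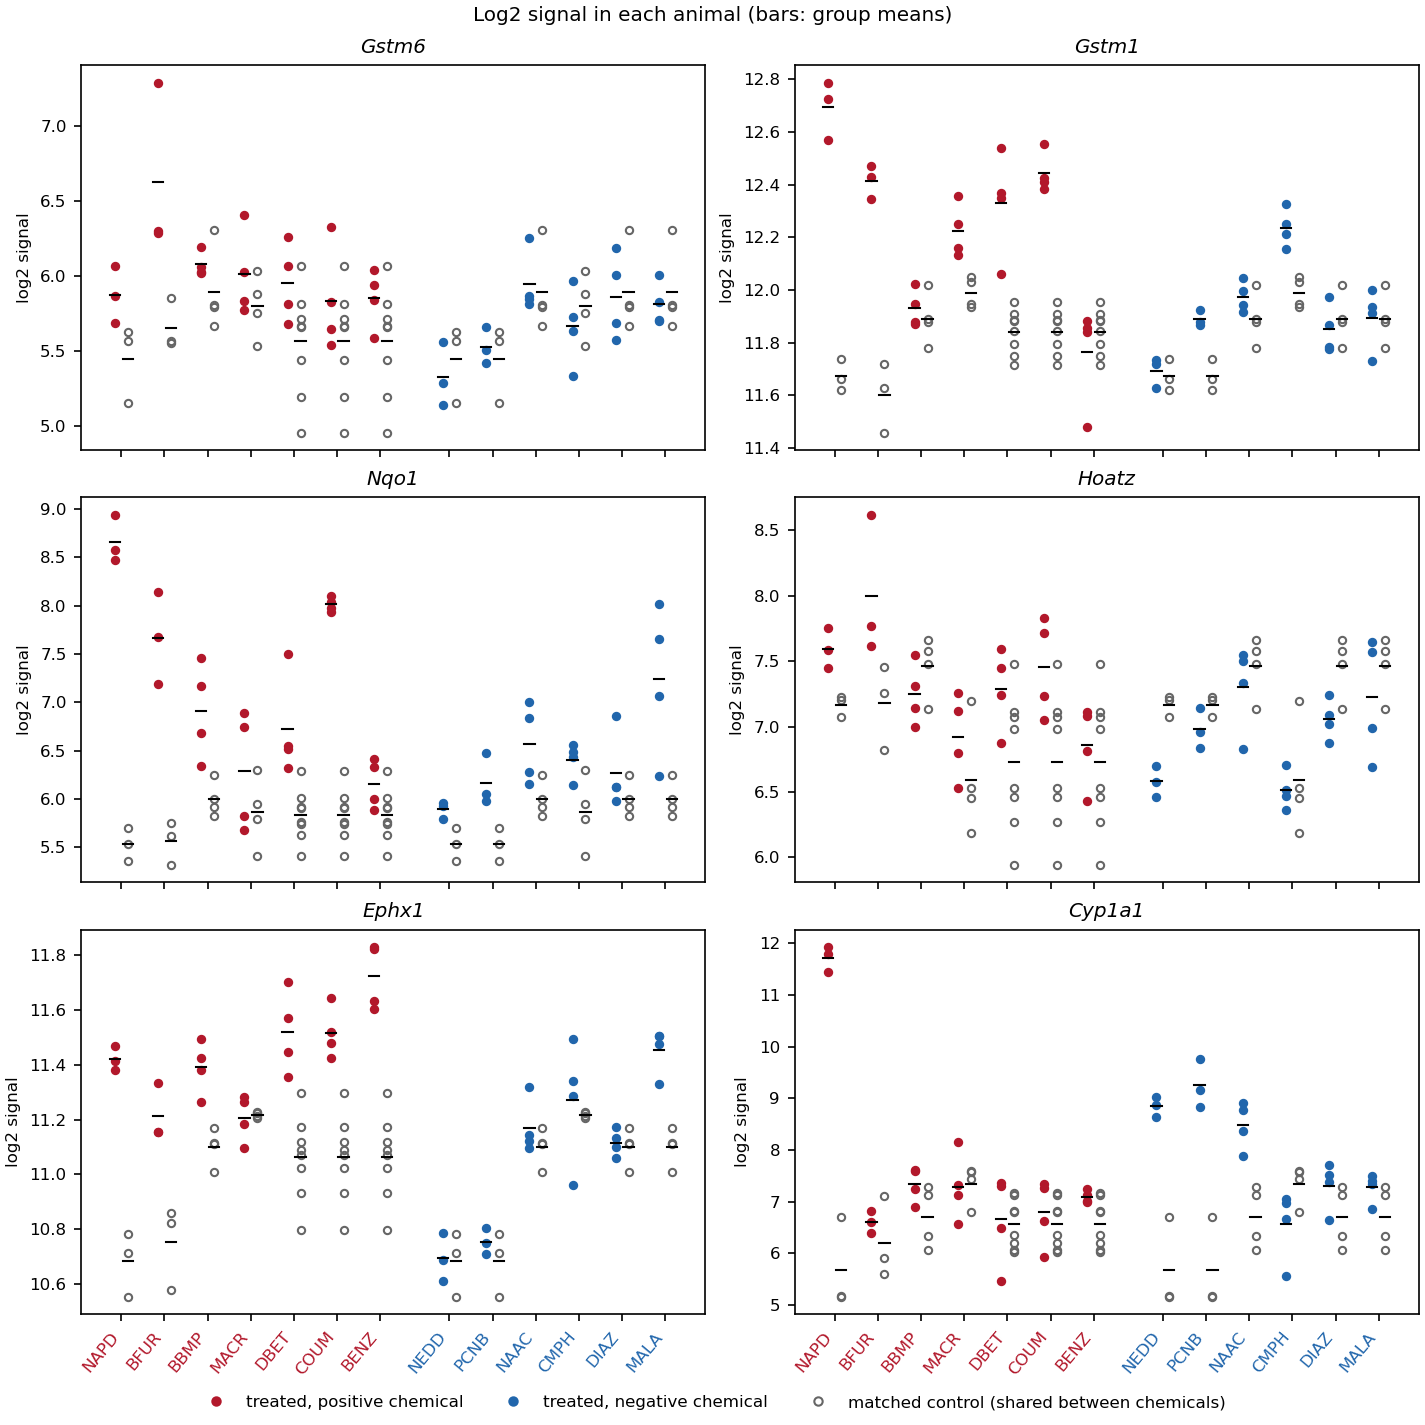
Log2 signal of 6 genes in every animal, with treated animals (filled) left of their matched controls (open) for each chemical and bars at the group means. Nqo1 and Gstm1 separate treated animals from controls in 1,5-naphthalenediamine, benzofuran, 1,2-dibromoethane and coumarin, and Cyp1a1 is high with NAPD, NEDD and PCNB.

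The p53 targets were prominent among the few genes called with benzene. Of 31 listed genes 28 were tested, 20 (71.4%) had a class difference above 0, beside 54.4% of all genes, and the median was 0.08. Benzene had 5 of the 28 called higher, where 0.0822% of all genes were. N-methylolacrylamide had 4 higher and 2 lower, near its shares of 10.7% and 7.13% of all genes. 1,2-Dibromoethane had 3 higher (1.94% of all genes), 1,5-naphthalenediamine 2 (0.959%), coumarin 2 (2.91%) and benzofuran 1 (3.55%). Malathion had 2 higher and 1 lower (1.03% and 1.16%). The median change of the list was 0.13 for benzene. The positive class lay between -0.13 for N-methylolacrylamide and 0.19 for 1,5-naphthalenediamine, and the negative class between -0.03 for diazinon and 0.11 for malathion. Ephx1, the microsomal epoxide hydrolase, is in the list. Benzene animals had Ephx1 signals of 11.60, 11.63, 11.82 and 11.83, against 10.80 to 11.30 in controls, a rise of 0.66 ± 0.07 (adjusted p 4.54e-08).

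Ephx1 was called in 5 positive chemicals. It rose by 0.74 for 1,5-naphthalenediamine (adjusted p 3.76e-07), 0.46 for benzofuran, 0.46 for 1,2-dibromoethane and 0.45 for coumarin, beside benzene. BBMP animals had 11.26, 11.38, 11.43 and 11.49 and malathion animals 11.33, 11.48, 11.50 and 11.51, against 11.01, 11.11, 11.12 and 11.17 in their common controls. Both groups lay above all these controls, with changes of 0.35 for malathion (called, adjusted p 0.0158) and 0.29 for BBMP (not called, 0.301). The other 5 negative chemicals lay between 0.01 and 0.07. Ddit4l, an inhibitor of mTOR signalling, rose by 0.60 for benzene, 0.52 for 1,2-dibromoethane and 0.45 for coumarin. Dglucy, a mitochondrial D-glutamate cyclase, rose by 0.79 for benzene (adjusted p 7.29e-06) and 0.42 for 1,2-dibromoethane (0.0173).

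Ciliated cell genes had the largest class median of the lists described here. All 22 tested of 24 listed markers had a class difference above 0, with a median of 0.40, and 16 had an unadjusted p under 0.05, beside 943 of all 14593 genes. None was called by class. 1,2-Dibromoethane had 8 called higher (1.94% of all genes were), benzofuran 7 (3.55%), coumarin 6 (2.91%) and N-methylolacrylamide 1 (10.7%). The median change was 0.55 for benzofuran, 0.50 for 1,2-dibromoethane, 0.36 for coumarin, 0.14 for 1,5-naphthalenediamine, 0.10 for N-methylolacrylamide, -0.02 for benzene and -0.28 for BBMP. All 6 negative chemicals had medians below 0, between -0.38 for NEDD and -0.02 for CMPH. In lung tissue as a whole, fewer cells of a type and less RNA per cell cannot be told apart.

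Capsl, a calcium-binding protein of ciliated cells, had a class difference of 0.65 ± 0.17. 1,5-Naphthalenediamine animals had log2 signals of 8.09, 8.12 and 8.19, against 7.22, 7.62 and 7.73 in their controls, and NEDD animals, with the same controls, had 7.01, 7.01 and 7.04. The controls lay between the 2 treated groups without overlap. Foxj1, the master transcription factor of motile cilia (named after its values were seen), had 0.40 ± 0.12, with 0.76 for benzofuran and 0.51 for coumarin at the top of the positive class and 0.20 for malathion at the top of the negative class. Ccdc113 had 0.54 ± 0.15 and Cfap206 0.45 ± 0.13, both components of the ciliary axoneme or its base.

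The vehicle moved with this result. The 3 chemicals with the highest ciliated medians were all given in corn oil, and the class median of the list was 0.23 without the corn oil chemicals, 0.19 for feed chemicals alone and 0.16 with the control group as a fixed block, against 0.40 with all 13. Club and secretory cell markers moved further. Their class median was 0.32 with all 13 chemicals (14 of 14 above 0), 0.03 without the corn oil chemicals, 0.02 for feed chemicals alone and -0.0009 with the block. Coumarin had 6 club cell markers called higher (2.91% of all genes were) and 1,2-dibromoethane 4 (1.94%). Malathion had 4 called lower (1.16% of all genes were), including Scgb1a1 and Cyp2f2. With the 3' minus 5' difference as a covariate the class medians were 0.36 for ciliated and 0.22 for club cell markers.

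**Figure D4:**
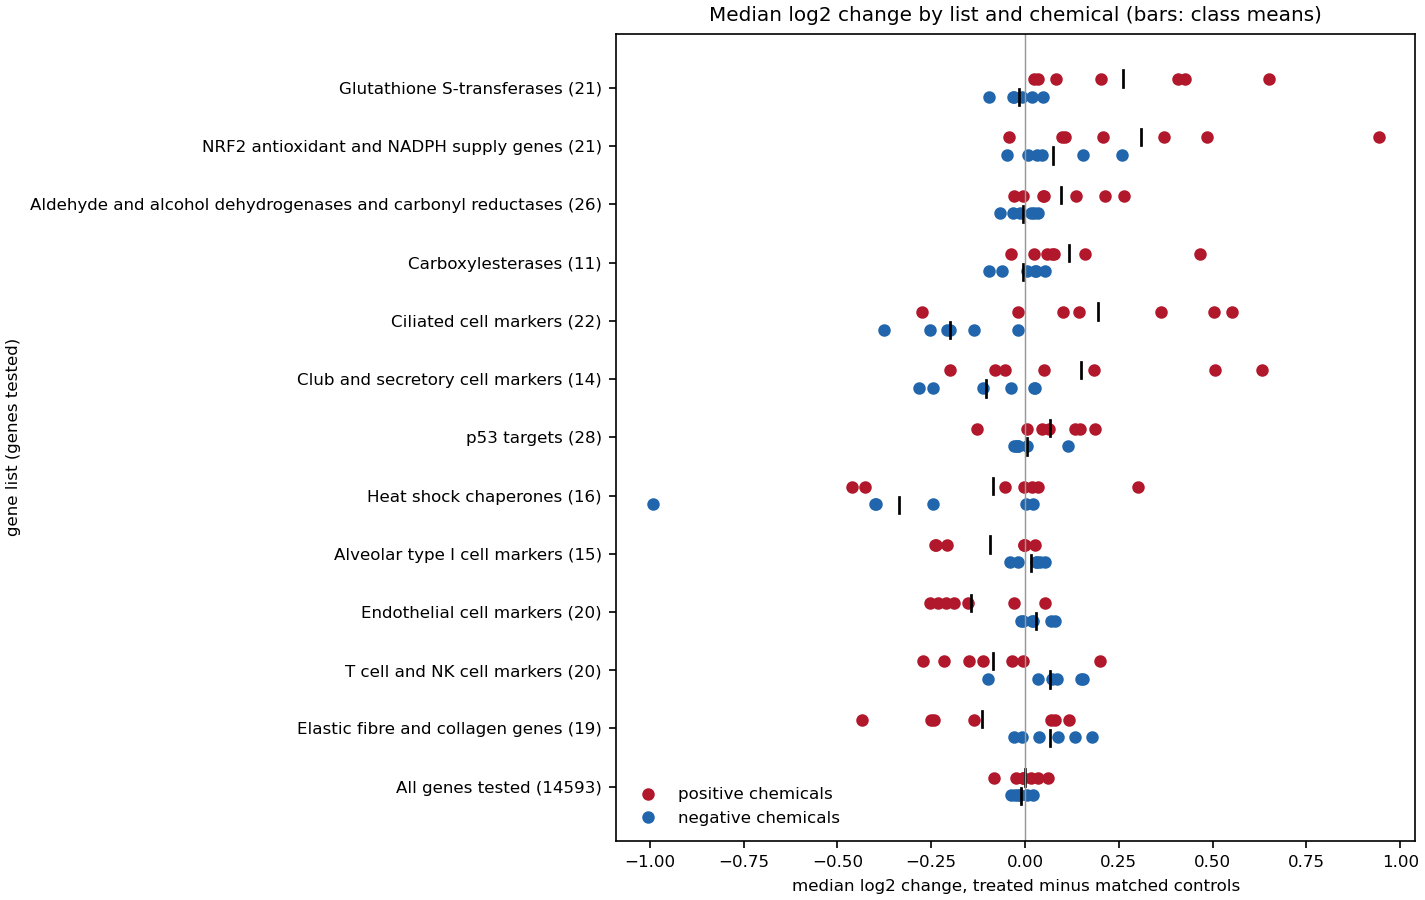
Median log2 change of each gene list (rows) for every chemical, positive chemicals above negative ones within a row, with bars at the class means. Ciliated markers of all 6 negative chemicals lie below 0, and the medians over all genes tested lie near 0.

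Endothelial, lymphocyte and matrix genes had class differences below 0. Of 20 endothelial markers 1 (5%) had a class difference above 0, beside 54.4% of all genes, and the median was -0.15. Coumarin had 6 called lower (1.18% of all genes were), 1,2-dibromoethane 2 (2.09%) and 1,5-naphthalenediamine 1 (0.151%). N-methylolacrylamide had 5 called higher (10.7% of all genes were) and malathion 1 (1.03%). Pecam1, an adhesion molecule of endothelium, had -0.20 ± 0.06, with BBMP (0.10) the one positive chemical above 0. Cdh5, the cadherin of endothelial junctions, fell by 0.57 for coumarin (adjusted p 0.000636) and Tie1, an endothelial receptor kinase, by 0.46.

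Notch4, a Notch receptor of endothelial cells, fell in 3 corn oil chemicals. Benzofuran animals had log2 signals of 8.26, 8.31 and 8.33, against 8.58, 8.93 and 9.17 in controls (a fall of 0.60, adjusted p 0.0264). The change was -0.47 for 1,2-dibromoethane (0.02), -0.45 for coumarin (0.0251) and -0.38 for N-methylolacrylamide, which was not called (0.0575). Col4a2, a basement membrane collagen, was the 1 gene lower in positive chemicals of 3 control groups. Benzofuran animals had 9.72, 10.39 and 10.68, against 10.73, 10.85 and 10.93. N-methylolacrylamide animals had 11.11, 11.17, 11.25 and 11.33, against 11.39, 11.49, 11.58 and 11.82. 1,2-Dibromoethane animals had 10.86, 11.01, 11.06 and 11.12, against 11.22 to 11.57. All treated animals lay below all controls in these 3 chemicals, and Col4a2 fell by 0.57 (adjusted p 0.016), 0.35 (0.045) and 0.38 (0.0354). When 1 array was left out, between 0 and 5 genes met this rule.

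The matrix list (19 tested of 20) had a class median of -0.19 and 3 members above 0. Benzofuran had 8 members called lower (0.521% of all genes were), 1,2-dibromoethane 3 (2.09%) and coumarin 1 (1.18%). Sparc, a collagen-binding matrix protein, fell by 0.39 for benzofuran and 0.29 for 1,2-dibromoethane. Npnt, the matrix protein nephronectin, changed by -0.47 for benzofuran, -0.43 for 1,2-dibromoethane and -0.36 for coumarin, all called. T and NK cell markers (20 tested of 23) had a class median of -0.16 with 1 above 0. That median was -0.07 for feed chemicals alone, -0.08 for set 1 alone and -0.06 with the control group as a fixed block. Coumarin had 7 called lower (1.18% of all genes were), among them Prf1, the perforin gene, which fell by 0.70 (adjusted p 0.00951). Malathion had 3 called higher (1.03% of all genes were), among them Cd3e (0.48), a T cell receptor component. The class medians of the matrix list were -0.06 for feed chemicals alone and -0.37 for set 1 alone. The endothelial median was -0.10 without the corn oil chemicals.

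Other strong changes did not follow the classes. Cyp1a1, the main target of the aryl hydrocarbon receptor, rose most in 1,5-naphthalenediamine, where animals had 11.45, 11.79 and 11.93, against 5.15, 5.18 and 6.70 in controls (6.05 ± 0.42, adjusted p 1.88e-16). It also rose in the negative chemicals that share these controls. NEDD animals had 8.63, 8.87 and 9.02 (a rise of 3.17, 5.78e-06) and pentachloronitrobenzene animals 8.84, 9.15 and 9.76 (3.58, 1.43e-07). 4-Nitroanthranilic acid animals had 7.88, 8.36, 8.77 and 8.90, against 6.06, 6.32, 7.13 and 7.28, without overlap, but the change of 1.78 was not called (adjusted p 0.122). The class difference of Cyp1a1 was -0.36 ± 0.94 (adjusted p 0.948), and 6 of the alternatives gave it the other sign. Cyp1b1, under the same receptor, rose in 1,5-naphthalenediamine alone (1.73).

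Cyp2c29, a drug-metabolizing P450, changed in feed chemicals of set 2. Diazinon animals had 3.83, 4.04, 4.58 and 8.15 and malathion animals 3.85, 4.73, 6.71 and 6.74, against 7.38, 7.73, 8.17 and 9.24 in their controls, with changes of -2.98 for diazinon (adjusted p 0.0323) and -2.62 for malathion (0.0059). Positive BBMP animals had 4.25, 5.13, 6.13 and 7.08, all below these controls, with a change of -2.48 that was not called (0.107). The controls of the other 4 control groups lay between 3.56 and 5.54, so the high level belonged to the feed controls of set 2 and to 4-nitroanthranilic acid animals (5.75 to 7.92). Gprin3 fell in coumarin (-1.74), 1,2-dibromoethane (-0.88), N-methylolacrylamide (-0.92) and negative malathion (-1.42), and had values below 0 in all 13 chemicals.

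Where classes shared a vehicle and set, treated animals could be compared with treated animals, without the controls. 1,5-Naphthalenediamine minus the mean of NEDD and pentachloronitrobenzene had 251 genes higher (1.72%) and 30 lower (0.206%). Ces1g led with 3.97 ± 0.32, Nqo1 had 2.64 ± 0.26 (adjusted p 4.09e-11), Gsta2 2.23 and Gstm1 0.90 ± 0.08 (3.76e-13). Cyp1a1 was higher by 2.68 ± 0.36 (2.99e-07), Capsl by 0.97 ± 0.26 (0.0282), and Sparc was lower, at -0.36 ± 0.07 (0.000985). Gstm6 had 0.45 (adjusted p 0.313) and Hoatz 0.81 (0.0515), neither of them called.

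The corresponding contrasts within the other control groups called no gene. BBMP minus the mean of 4-nitroanthranilic acid, diazinon and malathion had 0 genes called in either direction (0%) by limma, with 133 at an unadjusted p under 0.05. N-methylolacrylamide minus CMPH had 0 called (0%), with 1488 unadjusted. Against the water controls N-methylolacrylamide had 2605 calls and CMPH none, and no gene passed in their direct contrast. Gstm1 differed by 0.02 for BBMP and -0.01 for N-methylolacrylamide, and Nqo1 by 0.22 and -0.12. A test of whether the class difference itself differed between set 2 and set 1 called 0 genes, with 585 unadjusted.

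The last comparison asked whether the class of a chemical could be read from the others. Each chemical was left out in turn, 50 genes were chosen on the other 12, and a diagonal linear discriminant scored the chemical, with scores above 0 on the positive side. The score had the side of the label for 9 of 13 chemicals, where calling all of them positive gives 7. On the positive side were benzofuran (5.34), coumarin (3.08), 1,2-dibromoethane (2.21) and 1,5-naphthalenediamine (0.628). BBMP (-5.57), N-methylolacrylamide (-3.50) and benzene (-0.266) were placed on the negative side against their label. Of the negative chemicals CMPH (0.663) was on the wrong side, and malathion (-0.458) and 4-nitroanthranilic acid (-0.621) lay close to 0, whereas NEDD had -2.47, diazinon -1.46 and pentachloronitrobenzene -1.12.

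Counted by animal, 30 of 48 had the side of their label. Using 20 or 200 genes also gave 9 chemicals, whereas probe sets averaged per gene gave 7. When all chemicals with the same controls were left out together, 8 of 13 had the side of their label, with NEDD (0.0349) and pentachloronitrobenzene (0.380) on the wrong side. The 6 genes that entered every left-out set were Hoatz, Meig1, Plch1, Rarb, Ttc26 and 1700016K19Rik, the last named after the result was seen, while 183 genes entered at least once. Several of these are the genes of cilia given above, with values below 0 in the negative chemicals.

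**Figure D5:**
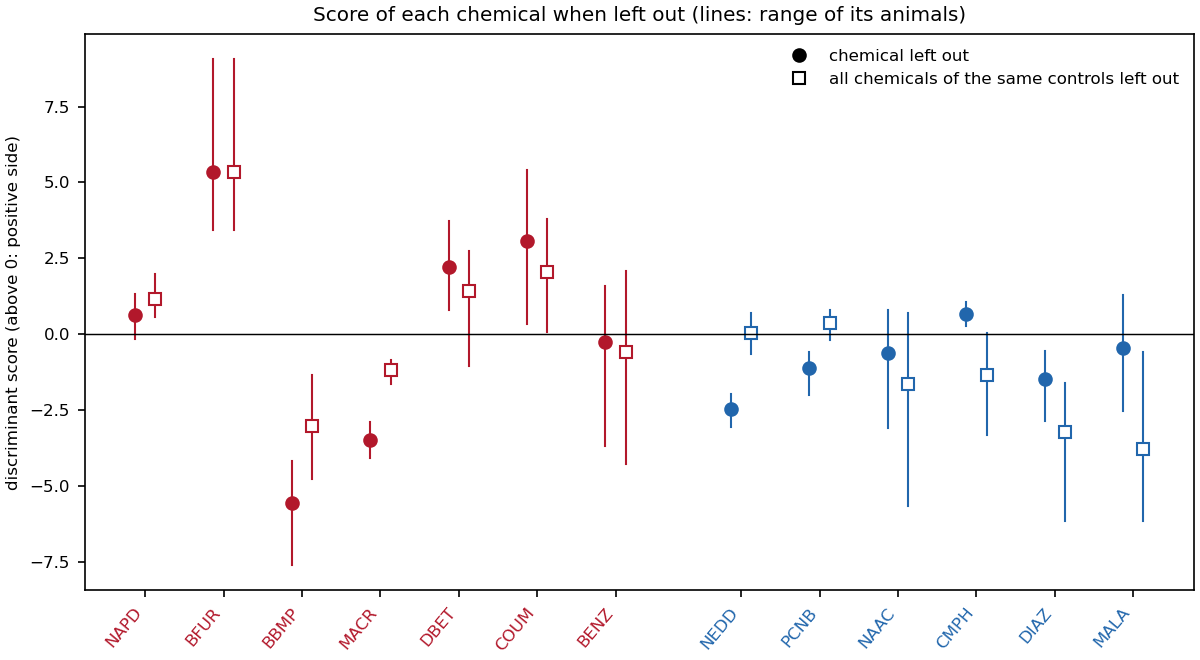
Discriminant score of each chemical when it (filled) or all chemicals with its controls (open) were left out, with lines over the range of its animals and scores above 0 on the positive side. Benzofuran (5.34) and BBMP (-5.57) mark the ends of the positive class.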

How the data were processed

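RNA of 70 right lung lobes (purified by Trizol, then RNeasy, with biotin as the label, per the labels' protocols) was measured on Affymetrix mouse arrays, 1 array per animal. The authors deposited log2 probe set signals. For the summarization and normalization the method was not given in the sources used here. Their log2 scale was inferred from the range of the deposited values, 2.47 to 14.5, and array medians lay at 5.41 to 5.52. Correlations between arrays were 0.915 to 0.997, and no 2 arrays were identical. Precision is limited by the number of arrays.

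Of 45101 probe sets, 64 were controls, 932 had several gene symbols, 9160 had none and 34945 had 1 symbol in the platform annotation. Symbols were updated through Entrez numbers with the RefSeq table of GRCm38.p6 for 18032 of 18193 genes. A gene was represented by its probe set of highest mean signal, and genes above the 30th percentile (4.25) were kept, which gave 14593. Other genes were not tested.

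Groups came from the chemical, vehicle and animal identifier of the labels. The set number is the first part of the identifier, and its meaning was not given in the sources used here. Replicates within a group are separate animals. Changes per chemical came from 1 model with 18 group means (lmFit and eBayes of limma 3.58.1 in R 4.3.3). Classes were compared with limma on the 13 columns of changes, and single values with two-sided exact permutation tests. The smallest possible p of these is 0.000583 with all 13 chemicals and larger with fewer. Because chemicals with common controls are not independent, recurrence was counted over control groups. The class fit and the permutation tests made no allowance for common controls, apart from the alternatives with control group blocks. P-values were adjusted by Benjamini-Hochberg over the 14593 genes of each comparison. Values after ± are SE for log2 changes and class differences, and SD where so marked.

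The named genes were the 10 of largest moderated t in each direction, up to 10 called in most positive chemicals (at least 3), up to 6 called in at least 2 negative chemicals, and up to 3 members of smallest class p per list, of which the text gives a selection. The chemicals, lists, tests and this rule were chosen with earlier results of these data known. The fitting steps were run on simulated data with independent noise per animal and an equal shift in all positive chemicals. Those data held no differences between sets or vehicles and no other variation between chemicals, so they do not test these limits. Alternatives were other filters, the mean over probe sets, renewed quantile normalization, a variance trend, subsets of chemicals, control group blocks and animals as replicates. Others were no subtraction of controls, the 3' minus 5' difference as a covariate, and single arrays or chemicals left out. The recurrence count, its alternatives and the test of class by set were added after the data were seen. Data were read with data.table (version 1.17.8), and figures drawn with matplotlib 3.10.9 in Python 3.11.15.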

Additional observations from a re-analysis of the deposited data

Results flagged for a closer look

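Within each class, the highest or lowest chemical was set against its nearest neighbour for 150 groups of values, and 18 stood far apart from the rest. For unselected values chance flags about 1 in 20. Most groups were of genes picked by their values in these same data, so the 18 cannot be judged by that rate. In the positive class, BBMP stood apart at -0.43 log2 in Rarb (nearest 0.32), 0.13 in Ece1 (nearest -0.13), 0.10 in Pecam1 (nearest -0.11) and -2.48 in Cyp2c29 (nearest -0.36). 1,5-Naphthalenediamine stood apart at 6.05 in Cyp1a1 (nearest 0.64), 1.46 in Gclc (nearest 0.47) and 1.73 in Cyp1b1 (nearest 0.36). Benzofuran stood apart at 0.97 in Gstm6 (nearest 0.43), 0.35 in Romo1 (nearest 0.12) and 0.57 in Ss18l2 (nearest 0.01).

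In the negative class, malathion stood apart at 0.35 in Ephx1 (nearest 0.07), 0.45 in Acox2 (nearest 0.19), 1.13 in Gpx2 (nearest 0.31) and 0.0044 in Cyp2s1 (nearest -0.10). It also stood apart in its number of called genes, at 8.33 on the log2(called + 1) scale, against 1 for the nearest. NEDD stood apart at -0.62 in 1700029J07Rik (nearest -0.30) and 0.48 in Spock2 (nearest 0.06), and CMPH at 0.63 in Acsm1 (nearest 0.09). What sets these chemicals apart was not tested.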

How the results depend on the processing

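The class comparison called 0 genes in all alternatives run but these: treating animals as independent replicates, which ignores that animals of 1 chemical share it, called 620, and leaving out 1 chemical at a time gave 0 to 4. The difference in log2(called + 1) of 5.28 was 3.60 (exact permutation p 0.0915) on the arrays of the 2 groups alone, 1.41 (p 1) for feed chemicals, 4.39 (p 0.222) for set 2, 7.28 (p 0.333) for set 1 and 4.34 (p 0.274) without the corn oil chemicals. Set 1 holds 4 chemicals, for which 0.333 is the smallest p this test can give, so its value could not pass. With 1 chemical left out the difference in log2(called + 1) was 4.58 to 6.56. Its unadjusted exact permutation p was then 0.0541 to 0.0606 without benzofuran, N-methylolacrylamide, 1,2-dibromoethane, coumarin, 4-nitroanthranilic acid or CMPH, and 0.00649 to 0.0476 without any other. The difference in spread was 0.0306 to 0.0629 with 1 chemical left out, and passed at an unadjusted exact permutation p of 0.0455 without benzene (0.0625). With probe sets averaged per gene, the discriminant had 7 of 13 chemicals on the side of their label. Calling all of them positive also gives 7. It had 4 of the 9 chemicals on that side in set 2 alone, and 5 of 13 without subtraction of controls. The 52 recurrent genes were 7 on the arrays of the 2 groups alone, 23 without arrays 1-10 and 2-56, and 22 to 57 with 1 array left out. The class difference in 3' minus 5' kept its side of the threshold.

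Of 2152 class differences of 72 genes under 30 alternatives, 14 in 5 genes changed sign. Cyp1a1 had 1.40 for feed chemicals and 0.72 without the corn oil chemicals. With the control group as a fixed or random block it had 0.98 and 0.43, and with the 3' minus 5' covariate 0.29. With 1 chemical left out it had -1.18 to 0.055, above 0 without pentachloronitrobenzene. Cyp2c29 had -0.0042 for feed chemicals, -0.31 for set 1, -0.67 without subtraction and -0.17 with the fixed block. Cyp1b1 had -0.0024 for set 2 and -0.0067 (without 1,5-naphthalenediamine) to 0.37 with 1 chemical left out, Ces1e -0.030 and Cckar -0.00077 with the fixed block. The causes were not tested. Settings that change the fit alone give no value for the discriminant or the spread. No paired analysis was possible because the groups share no animal numbers.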

Other observations

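Heat shock chaperones (16 tested) had median changes of 0.30 for N-methylolacrylamide, -0.43 for BBMP and -0.46 for coumarin in the positive class. In the negative class they were -0.25 for 4-nitroanthranilic acid, -0.40 for CMPH and diazinon and -0.99 for malathion, and the other 6 chemicals lay between -0.05 and 0.03. N-methylolacrylamide had 4 called higher (10.7% of all genes were). Coumarin had 2 called lower (1.18% of all genes were) and malathion 9 (1.16%). The class median was 0.23 with no member at an unadjusted p under 0.05. It was 0.02 for feed chemicals alone and 0.08 for set 1 alone.

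Hepatocyte markers, which lung tissue should hold at low levels, had median changes of 0.42 for BBMP, 0.23 for coumarin, -0.15 for benzene, -0.36 for N-methylolacrylamide and -0.67 for 1,2-dibromoethane in the positive class. In the negative class they were 0.60 for malathion, 0.14 for 4-nitroanthranilic acid and -0.42 for CMPH, and the other 5 chemicals lay between -0.02 and 0.08. DNA repair genes had a class median of -0.01 with 12 of 25 above 0, and cell cycle genes -0.09 with 5 of 22 above 0, beside 54.4% of all genes tested. The cell cycle median turned to 0.07 for feed chemicals alone, 0.11 without the corn oil chemicals and 0.14 with the control group as a fixed block.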
